A study of Homo sapiens and Mus musculus with 15 samples.

Results

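The 40 genes described here encode the machinery that brings proteins into the endoplasmic reticulum (ER), folds them there and returns misfolded ones for destruction. They come from a list of gene names, grouped here by role. All 40 were found by symbol among the 23346 genes counted in the human libraries and, as title-case symbols, among the 23329 genes counted in the mouse libraries. By role, 17 act in folding, 11 in translocation and 10 in ER-associated degradation, and 2 (WFS1 and CREB3L2) in neither. RNA-seq covered 15 libraries of myeloma cell lines, in 5 groups with 3 libraries each. The mouse line 5TGM1, derived by serial passage of a spontaneous plasma cell myeloma of C57Bl/KaLwRij mice, was present as a bortezomib-resistant line kept in 20 nM bortezomib and as the drug-naive line. The human line RPMI-8226, called 8226 below, was present as a carfilzomib-resistant line kept in 10 nM carfilzomib, a bortezomib-resistant line kept in 10 nM bortezomib, and the drug-naive line. Resistance had been raised by months of culture in rising drug, and drug was withdrawn 5 days before RNA extraction, so no resistant library comes from cells in drug. Each resistant group is 1 selected line, so resistance and the history of that line cannot be told apart. Nothing in the labels says that the 3 libraries of a group were grown as separate cultures. The p-values therefore rest on the variation among these libraries alone, which may be technical.

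Plasma cells secrete antibody in bulk, and myeloma cells, their malignant counterparts, carry an enlarged ER. Nascent secretory chains enter through the Sec61 channel, lose their signal peptide, are glycosylated and fold with the help of the Hsp70-type chaperone BiP (HSPA5), the Hsp90-type chaperone GRP94 (HSP90B1), lectin chaperones and disulfide isomerases. Chains that fail to fold are passed back to the cytosol by the HRD1 ubiquitin ligase complex and are destroyed by the proteasome. Bortezomib, a peptide boronic acid, and carfilzomib, a peptide epoxyketone, both inhibit the proteasome and are used against myeloma. Many of these genes are targets of the unfolded protein response, whose factors XBP1 and ATF6 act through the ER stress element in promoters.

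Mouse libraries held 49097494 to 72288680 reads in genes, and human libraries 31709636 to 58419576. The bortezomib-resistant 8226 libraries were the shallowest, at 31709636 to 34339788 reads. Levels are given as CPM, the count of a gene per 1000000 reads in genes, scaled by the trimmed mean of M-values (TMM). They are compared between groups of a line, not between genes, since CPM does not correct for gene length. A count of 3 corresponded to 0.0415 to 0.0946 CPM, below every member's level. Of 9 plasma cell markers, 7 of the 8 counted in 5TGM1 stood above 1 CPM in both groups, and 9, 8 and 9 of 9 did so in carfilzomib-resistant, bortezomib-resistant and naive 8226. Summed plasma cell markers moved with the groups: 5059 to 5149 CPM in bortezomib-resistant 5TGM1 against 4053 to 4257 CPM in naive 5TGM1. In 8226 the sums were 1535 to 1595 CPM in carfilzomib-resistant and 1711 to 1748 CPM in bortezomib-resistant 8226 against 2355 to 2547 CPM in naive 8226. These markers include XBP1, a factor of the unfolded protein response. The part of this shift in the members' changes was not tested. Of the markers of other cell types, EPCAM and KRT18 stood above 1 CPM in both lines, as did KRT8 and CDH1 in 8226. The sum of the 4 epithelial genes was 347 to 354 CPM in bortezomib-resistant and 320.1 to 328 CPM in naive 5TGM1. In 8226 it was 263 to 272 CPM in carfilzomib-resistant, 229 to 243 CPM in bortezomib-resistant and 302 to 315 CPM in naive 8226. T cell, myeloid, stromal, erythroid and endothelial lists summed to under 10 CPM in every library. Within them, Col1a1 and Pecam1 averaged above 1 CPM in both 5TGM1 groups, and Cd2 in naive 5TGM1. CD3E and HBA1 did so in naive 8226 alone, and COL1A1 in naive and bortezomib-resistant 8226.

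The promoters of 36 of the 40 members were found in the RefSeq table of windows from 250 bases before to 50 bases after each gene start (GRCh38.p14, used for these windows only). Those of PDIA3, SPCS1, DERL1 and DERL3 were not. The ER stress element was searched only as CCAAT followed after any 9 bases by CCACG, on both strands. Other spacings or forms were not searched, so a gene without a match may hold one of those. The searched element stood in 7 of the 36 matched members (19.4%) and in 25 of all 27305 genes of the table (0.0916%). Many members are known targets of factors that act through this element, so an excess among them is not a finding of these data. A gene with several windows was counted if any of them held the element. By role, 6 of 16 folding members held it (HSPA5, HSP90B1, PDIA6, CALR, CANX and CRELD2), 1 of 10 translocation members (SERP1) and 0 of 8 degradation members. For these 7 genes the stretch around the element is printed, because 6 of them act in folding and none in degradation. Each stretch is on the strand of its gene with the paired pentamers in capitals (CCAAT and CCACG, or ATTGG and CGTGG where the element lies on the other strand).
HSPA5, chr9:125241381-125241419, minus strand: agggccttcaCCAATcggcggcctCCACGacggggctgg
HSP90B1, chr12:103930206-103930349, plus strand: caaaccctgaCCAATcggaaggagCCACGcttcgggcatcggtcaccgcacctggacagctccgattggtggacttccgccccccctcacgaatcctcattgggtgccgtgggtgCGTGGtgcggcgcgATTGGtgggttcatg
PDIA6, chr2:10812843-10812881, minus strand: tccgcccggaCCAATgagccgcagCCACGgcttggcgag
CALR, chr19:12938374-12938412, plus strand: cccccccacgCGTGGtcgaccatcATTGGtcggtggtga
CANX, chr5:179698768-179698806, plus strand: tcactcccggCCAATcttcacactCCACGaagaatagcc
CRELD2, chr22:49918544-49918582, plus strand: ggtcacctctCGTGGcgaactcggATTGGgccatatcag
SERP1, chr3:150546700-150546738, minus strand: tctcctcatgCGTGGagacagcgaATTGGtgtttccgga
HSP90B1 holds the element in both orientations within 144 bases, the others hold it in a stretch of 39. The pentamer CCACG alone, which overlaps the element, stood in 29 of 36 matched members (80.6%) against 42.1% of all genes, and the UPR element core TGACGTGG in 4 of 36 (11.1%: DNAJC10, HYOU1, SEC62 and SSR3) against 0.927%. A match is a description of the letters and not a bound site, and no promoter sequence of the mouse genes was used here.

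The first comparison asked how resistance to bortezomib was accompanied by change in the mouse line. In bortezomib-resistant 5TGM1, folding and degradation members were mostly higher than in naive cells and translocation members mostly lower. Whether the roles differ was not tested. The steps were small: the median change of the 40 members was 0.092 on the log2 scale against 0.0045 for all genes tested. Of the 40 members, 20 were called higher and 12 lower at an adjusted p below 0.05, and 8 were not called. Calls, here and below, were made by the quasi-likelihood test of edgeR, with p adjusted over every gene tested by the Benjamini-Hochberg method. In this comparison 34.0% of the 11974 genes tested were called higher and 33.2% lower. Resistant and naive libraries did not overlap for 33 of 40 members and for 69.7% of all genes. By role, 12 of 17 folding members were called higher and 3 lower (median 0.19), 1 of 11 translocation members higher and 7 lower (median -0.15), and 6 of 10 degradation members higher and 1 lower (median 0.14). The folding members summed to 19441.5 ± 127 CPM in bortezomib-resistant and 16815 ± 160 CPM in naive 5TGM1 (SD, n = 3 each). Translocation members summed to 5314 ± 79.7 CPM in bortezomib-resistant and 6227 ± 87.8 CPM in naive cells, and degradation members to 3508 ± 48.2 CPM in bortezomib-resistant and 3003 ± 40.6 CPM in naive cells. In a bulk library, a lower level can come from fewer cells expressing a gene or from less RNA per cell, which cannot be told apart.

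**Figure D1:**
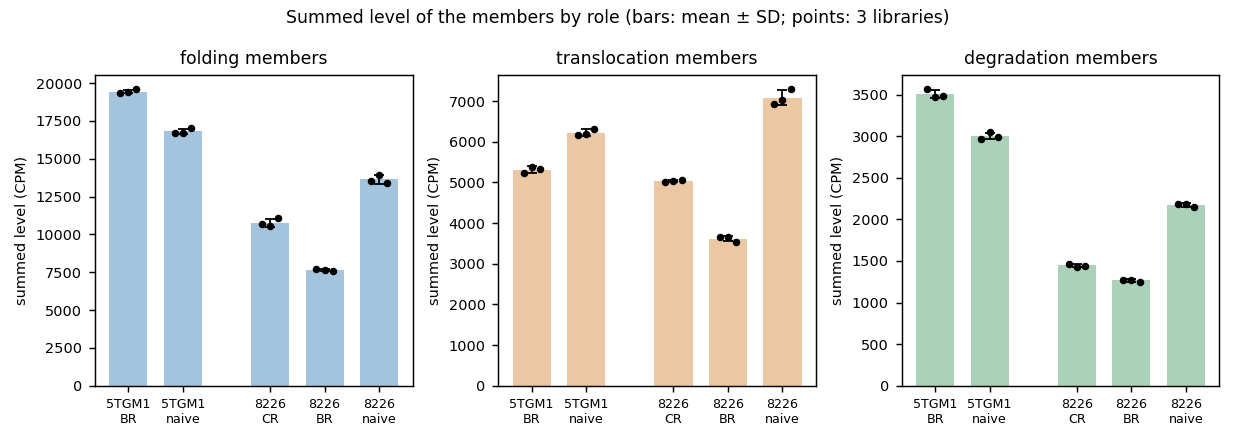
Summed TMM-scaled CPM of the 17 folding, 11 translocation and 10 degradation members in each group, with resistant groups left of the naive group of the same line. Bars are means of 3 libraries, error bars SD and points libraries; folding and degradation sums are higher in bortezomib-resistant than in naive 5TGM1 and translocation sums lower, while in 8226 all 3 sums are lowest in the bortezomib-resistant line.

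Among the folding members, the disulfide isomerase Pdia4 had 1533, 1494 and 1507 CPM in bortezomib-resistant 5TGM1, against 961, 990.0 and 1014 CPM in naive cells. All resistant libraries stood above all naive ones, a log2 fold change of 0.61 ± 0.040 (SE; adjusted p = 8.39e-10). P4hb, the founding disulfide isomerase, had 2457, 2379 and 2369 CPM in resistant and 1620.0, 1631 and 1657 CPM in naive cells (0.55 ± 0.039; adjusted p = 2.85e-09). Creld2, an ER stress-induced gene of the EGF-like family, had 193, 194 and 189.9 CPM in resistant and 145, 140.0 and 140.5 CPM in naive cells (0.44 ± 0.039; adjusted p = 3.88e-08). The 2 central chaperones rose by less: Hspa5 stood at 2592, 2657 and 2651 CPM in resistant against 2377, 2379 and 2456 CPM in naive cells (0.13 ± 0.040; adjusted p = 0.00783), with no overlap between groups. Hsp90b1 stood at 4166, 4217 and 4356 CPM in resistant against 3756, 3666 and 3709 CPM in naive cells (0.19 ± 0.041; adjusted p = 0.000485). The BiP co-chaperones did not move as a block. Dnajc3, which also restrains the kinase PERK, had 97.6, 97.1 and 101 CPM in resistant and 224, 228 and 225 CPM in naive cells, 2.29-fold lower (-1.20 ± 0.039; adjusted p = 1.33e-13). It was the only member of the 40 to change by 2-fold or more in this line. At that size, 439 of the 11974 genes tested were called higher and 736 lower. Dnajc10, a reductase that opens disulfides before degradation, was also lower, at 174, 175 and 175 CPM in resistant and 213, 224 and 225 CPM in naive cells (-0.34 ± 0.039). So was the lectin chaperone Canx, at 940.0, 987 and 986 CPM in resistant and 1037, 1142 and 1129 CPM in naive cells (-0.18 ± 0.045). Dnajb9 (0.30 ± 0.044) and Dnajb11 (0.24 ± 0.039), which stimulate BiP's ATPase, were higher. The remaining higher folding members were Pdia6 (0.33 ± 0.041), the glycoprotein folding sensor Uggt1 (0.32 ± 0.049), the secreted ER factor Manf (0.19 ± 0.044), BiP's nucleotide exchange factor Hyou1 (0.15 ± 0.048) and the soluble lectin chaperone Calr (0.12 ± 0.039). Without naive library 1 the change of Hyou1 was smaller (0.10, adjusted p = 0.0319). Pdia3 (0.05, 95% interval -0.034 to 0.13) and Sdf2l1 (0.053, -0.034 to 0.14) were not called, although their resistant libraries stood above the naive ones.

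Of the translocation members, 7 of 11 were called lower in the same cells, 1 higher and 3 not called. Spcs1, an accessory subunit of the signal peptidase, had 235, 232 and 234 CPM in resistant and 415, 386 and 404 CPM in naive 5TGM1 (-0.78 ± 0.040; adjusted p = 4.43e-11). Serp1, a small protein attached to the Sec61 channel, had 1266, 1296 and 1333 CPM in resistant and 1859, 1847 and 1869 CPM in naive cells (-0.52 ± 0.039; adjusted p = 6.83e-09). Sec61a1, the subunit that forms the pore, had 393, 394 and 376 CPM in resistant and 434, 489 and 501 CPM in naive cells (-0.29 ± 0.050; adjusted p = 6.94e-05). For these 3 genes every resistant library was below every naive library. Ssr2, a subunit of the translocon-associated protein complex, was the exception among the called translocation members, at 662, 677 and 658 CPM in resistant and 511, 484 and 515 CPM in naive cells (0.40 ± 0.040; adjusted p = 1.65e-07). Its partners Ssr3 (-0.23 ± 0.037) and Ssr1 (-0.15 ± 0.042) were lower. Sec62 (-0.23 ± 0.061) and Sec63 (-0.12 ± 0.040), which serve the entry of finished chains, were lower too. Without bortezomib-resistant library 1 the change of Sec62 was smaller (-0.14, adjusted p = 0.0122). Sec63 lost its call without bortezomib-resistant library 2 (-0.10, adjusted p = 0.0878). Spcs2, Spcs3 and Sec61b were not called, with 95% intervals of -0.14 to 0.028, -0.17 to 0.0069 and -0.057 to 0.16. Without naive library 1, Spcs3 was called lower (-0.12, adjusted p = 0.00817) and Sec61b higher (0.12, adjusted p = 0.0138).

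Of the degradation members, the lectin Os9, which hands glycoproteins to the HRD1 complex, had 483, 452 and 468 CPM in resistant and 361, 342 and 334 CPM in naive 5TGM1 (0.44 ± 0.043; adjusted p = 1.53e-07). Sel1l, the adaptor of HRD1, had 1029, 958 and 1000.2 CPM in resistant and 757, 811 and 743 CPM in naive cells (0.37 ± 0.045; adjusted p = 1.7e-06). Edem3, of the family that trims mannose from misfolded glycoproteins, had 106, 99.2 and 105 CPM in resistant and 79.4, 90.2 and 83.2 CPM in naive cells (0.29 ± 0.049; adjusted p = 6.79e-05). For all 3 the groups did not overlap. The ligase and its scaffold were not called. Syvn1, the HRD1 ligase itself, had 168, 169.8 and 169 CPM in resistant and 177, 181 and 169.5 CPM in naive cells (-0.061, 95% interval -0.15 to 0.024). Its scaffold Herpud1 had 349, 341 and 335 CPM in resistant and 354, 349 and 346 CPM in naive cells (-0.033, 95% interval -0.11 to 0.047). Libraries of the groups overlapped for both genes, and for Edem2 (95% interval -0.026 to 0.15). Derl1 (0.25 ± 0.039), Edem1 (0.14 ± 0.040) and Derl2 (0.13 ± 0.043) were higher. Derl2 was not called without naive library 2 (0.11, adjusted p = 0.0501) or without bortezomib-resistant library 2 (0.10, adjusted p = 0.105). Derl3, the third derlin, was lower (-0.44 ± 0.13; adjusted p = 0.00775) at a low level, 1.21, 1.21 and 1.40 CPM in resistant against 1.87, 1.78 and 1.51 CPM in naive cells, which corresponds to 67 to 129 reads per library. Outside these roles, Wfs1, the ER membrane protein wolframin, had 28.7, 26.8 and 25.4 CPM in resistant and 17.95, 18.9 and 17.2 CPM in naive cells (0.58 ± 0.057). The ER-anchored transcription factor Creb3l2 had 84.3, 67.1 and 74.1 CPM in resistant and 83.00, 97.2 and 85.6 CPM in naive cells (-0.24 ± 0.071; adjusted p = 0.00692) with overlapping libraries.

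Further genes of these pathways, listed by role, were read beside the members. These lists were drawn up with earlier results of these data known, so they are not independent support. Of 25 further folding genes tested in 5TGM1, 14 were called higher and 3 lower, of 25 translocation and glycosylation genes 8 higher and 9 lower, and of 23 degradation genes 7 higher and 8 lower. Beside the 34.0% of all genes called higher and 33.2% called lower, the counts for translocation and degradation genes were near the background. Sil1, another exchange factor of BiP, averaged 99.6 CPM in resistant and 48.2 CPM in naive cells (log2 fold change 1.05 ± 0.043). Pdia5 averaged 125 CPM in resistant and 62.3 CPM in naive cells (1.01 ± 0.041), and the disulfide oxidase Ero1l averaged 829 CPM in resistant and 474 CPM in naive cells (0.81 ± 0.039). Its paralogue Ero1lb was lower (-0.81 ± 0.041). Subunits of the oligosaccharyltransferase split: Rpn2 (0.53 ± 0.041), Ddost (0.52 ± 0.041) and Krtcap2 (0.34 ± 0.039) were higher. Dad1 (-1.005 ± 0.046) was lower, as were Sec61a2 (-0.37 ± 0.050) and the SRP receptor subunit Srprb (-0.32 ± 0.040). Among degradation genes, Erlin1 (0.68 ± 0.042), Ubxn4 (0.39 ± 0.038) and Erlin2 (0.23 ± 0.041) were higher. The deglycosylase Ngly1 (-0.80 ± 0.045), Ubac2 (-0.80 ± 0.047) and the lectin Erlec1 (-0.42 ± 0.041) were lower.

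**Figure D2:**
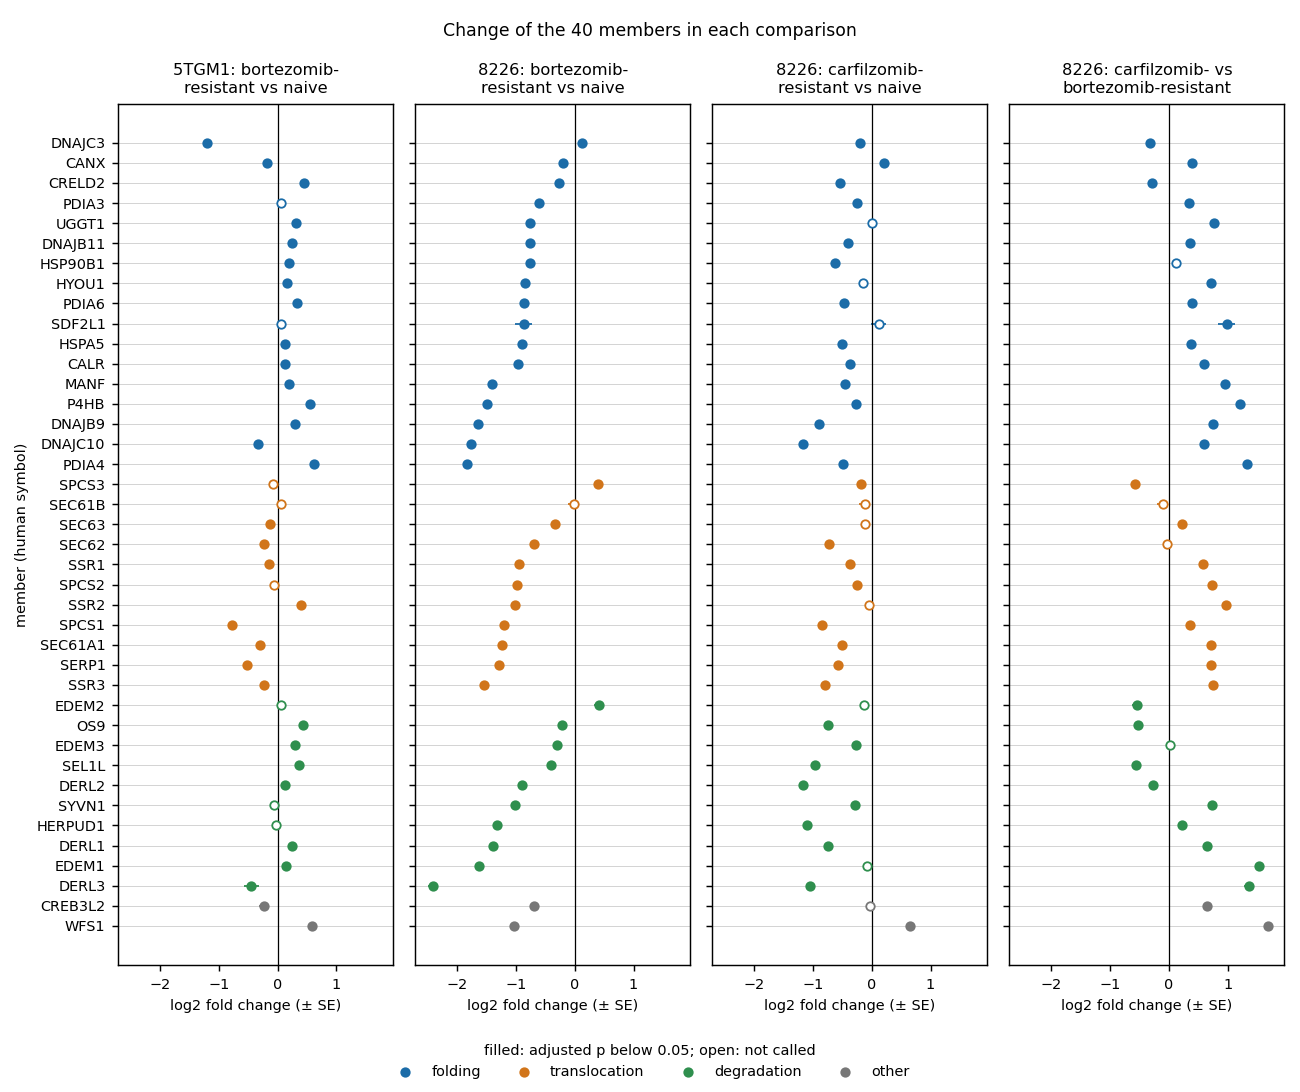
Log2 fold change (x axis, ± SE) of each of the 40 members (y axis, human symbols, grouped by role) in the 4 comparisons; filled points passed an adjusted p of 0.05 and open points did not. In bortezomib-resistant 8226, 36 members lie left of 0 as called changes, beside 41.6% of all genes called lower. The number is 12 in bortezomib-resistant 5TGM1 (33.2% of all genes) and 29 in carfilzomib-resistant 8226 (36.7%). With carfilzomib-resistant set against bortezomib-resistant 8226, 29 lie right of 0 as called changes, beside 39.9% of all genes called higher.

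The second comparison asked the same of the human line, and there the members were lower in all roles. In bortezomib-resistant 8226, 36 of 40 members were called lower than in naive cells, 3 higher (DNAJC3, SPCS3 and EDEM2) and 1 not called (SEC61B). Of the 13910 genes tested, 41.6% were called lower and 38.2% higher. The median change of the members was -0.89 on the log2 scale against -0.026 for all genes tested. In size, 16 members fell by 2-fold or more, a size reached downward by 19.4% of all genes. Libraries of the groups did not overlap for 38 of 40 members, against 79.6% of all genes. The drop was spread over the roles, with 16 of 17 folding members called lower (median -0.86), 9 of 11 translocation members (median -0.98) and 9 of 10 degradation members (median -0.95). Folding members summed to 7642 ± 61.8 CPM in bortezomib-resistant and 13636 ± 275 CPM in naive 8226 (SD, n = 3 each). Translocation members summed to 3619 ± 67.4 CPM in resistant and 7085 ± 187 CPM in naive cells, and degradation members to 1265 ± 14.2 CPM in resistant and 2174 ± 20.3 CPM in naive cells. Scaling matters here: with library size alone in place of TMM, the median of all genes moved up by 0.18, the share of calls that were higher was 58.7% in place of 47.9%, and the members' median was -0.70. CANX, CRELD2, SEC63, EDEM3 and OS9 were not called under that scaling. SEL1L stayed called with a smaller change (-0.22, adjusted p = 0.00148), and DNAJC3 with a larger one (0.31, adjusted p = 4.58e-05).

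The largest folding changes were in PDIA4 and in co-chaperones of BiP. PDIA4 had 229, 229.6 and 250.3 CPM in bortezomib-resistant 8226, against 838, 803 and 866 CPM in naive cells, 3.53-fold lower (-1.82 ± 0.055; adjusted p = 9.16e-14). DNAJC10 had 166, 162 and 155 CPM in resistant and 546, 563 and 518 CPM in naive cells (-1.75 ± 0.053; adjusted p = 8.84e-14). DNAJB9, a classic target of XBP1, had 36.6, 33.8 and 32.2 CPM in resistant and 100.3, 106 and 113 CPM in naive cells (-1.64 ± 0.062; adjusted p = 1.43e-12). In none of the 3 did a resistant library come within a factor of 2 of a naive one. HSPA5 had 1042, 1027 and 1047 CPM in resistant and 1906, 2005 and 1852 CPM in naive cells, 1.85-fold lower (-0.89 ± 0.052; adjusted p = 2.65e-10). HSP90B1 had 1373, 1329 and 1251 CPM in resistant and 2258, 2397 and 2052 CPM in naive cells (-0.76 ± 0.061; adjusted p = 1.29e-08). Both central chaperones thus sat below every naive library, but lost less than PDIA4. P4HB (-1.48 ± 0.051) and MANF (-1.41 ± 0.058) also fell by more than 2-fold. Smaller drops were seen for CALR (-0.97 ± 0.056), SDF2L1 (-0.87 ± 0.14), PDIA6 (-0.86 ± 0.055), HYOU1 (-0.85 ± 0.062), DNAJB11 (-0.76 ± 0.073), UGGT1 (-0.75 ± 0.060) and PDIA3 (-0.60 ± 0.053). The smallest called drops were in CRELD2 (-0.26 ± 0.068) and CANX (-0.20 ± 0.051). DNAJC3, the folding gene that was lowest against naive cells in the mouse line, had 174, 172 and 160.1 CPM in resistant and 160.2, 152 and 151 CPM in naive 8226 (0.13 ± 0.051; adjusted p = 0.0311). Its libraries overlapped between groups by 1 on each side. The call was not made with DESeq2 (adjusted p = 0.0896), RLE scaling (0.0941), no low-count filter (0.0659) or only the 6 libraries compared (0.0889). Nor was it made without naive library 2 (0.0672) or 3 (0.0937), or without resistant library 1 (0.117) or 2 (0.101).

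In the translocation machinery, SSR3 had 563, 568 and 554 CPM in bortezomib-resistant 8226, against 1591, 1558 and 1764 CPM in naive cells, 2.92-fold lower (-1.54 ± 0.056; adjusted p = 8.25e-13). SERP1 had 460.4, 448 and 447 CPM in resistant and 1058, 1133 and 1127 CPM in naive cells (-1.29 ± 0.049; adjusted p = 1.37e-12). SEC61A1 had 353, 358 and 373 CPM in resistant and 857, 807 and 871 CPM in naive cells (-1.23 ± 0.050; adjusted p = 3.84e-12). SEC61A1 and SSR3, a translocon-associated protein subunit, were thus below every naive library. SEC61B, the tail-anchored subunit of the same channel, had 158, 143 and 156 CPM in resistant and 139, 166 and 158 CPM in naive cells, and was not called (-0.016, 95% interval -0.21 to 0.18). SPCS1 (-1.19 ± 0.059), SSR2 (-1.02 ± 0.061), SPCS2 (-0.98 ± 0.064), SSR1 (-0.94 ± 0.052), SEC62 (-0.69 ± 0.059) and SEC63 (-0.34 ± 0.070) were lower. The signal peptidase subunits did not share a direction, since SPCS3, the essential glycosylated subunit, had 472, 496 and 459 CPM in resistant and 351, 342 and 389 CPM in naive cells (0.40 ± 0.060; adjusted p = 1.75e-05), the resistant libraries all above the naive ones.

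Among degradation members, DERL3, the derlin enriched in secretory cells, had 7.92, 8.17 and 9.62 CPM in bortezomib-resistant 8226, against 47.3, 43.5 and 46.1 CPM in naive cells, 5.33-fold lower and the largest change of any member here (-2.41 ± 0.083; adjusted p = 4.49e-13). EDEM1 had 116, 118 and 109 CPM in resistant and 364, 304 and 382 CPM in naive cells (-1.62 ± 0.073; adjusted p = 1.21e-11). DERL1 had 104, 102 and 107 CPM in resistant and 263, 284 and 274 CPM in naive cells (-1.39 ± 0.049; adjusted p = 5.71e-13). HERPUD1 and SYVN1, which were not called in the mouse line, were lower here. HERPUD1 had 157, 154 and 157 CPM in resistant and 369.6, 414 and 384 CPM in naive cells (-1.32 ± 0.052; adjusted p = 2.23e-12). SYVN1 had 48.98, 50.05 and 47.4 CPM in resistant and 107, 94.2 and 93.9 CPM in naive cells (-1.01 ± 0.061; adjusted p = 4.53e-10). The adaptor SEL1L (-0.41 ± 0.052), EDEM3 (-0.30 ± 0.054) and the lectin OS9 (-0.22 ± 0.052) fell by less than their ligase, and DERL2 by -0.89 ± 0.067. EDEM2, which starts mannose trimming, was higher, with 38.99, 35.4 and 40.9 CPM in resistant and 28.2, 28.8 and 29.9 CPM in naive cells (0.41 ± 0.074; adjusted p = 0.000106). WFS1 had 8.82, 8.73 and 9.07 CPM in resistant and 17.9, 17.1 and 19.4 CPM in naive cells (-1.03 ± 0.072). CREB3L2 had 64.9, 68.4 and 58.9 CPM in resistant and 113, 95.1 and 102 CPM in naive cells (-0.69 ± 0.070). The 7 members with an ER stress element in the printed stretches were all called lower in this comparison (median -0.86), as were 36 of all 40 members and 41.6% of all genes. CANX and CRELD2, which are among the 7, were not called with library size alone. The count was 5 higher and 2 lower in bortezomib-resistant 5TGM1, for the mouse genes of the same symbols. Of all genes tested there, 34.0% were called higher and 33.2% lower. In carfilzomib-resistant 8226, 1 of the 7 was higher and 6 lower than in naive cells, beside 35.0% and 36.7% of all genes.

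**Figure D3:**
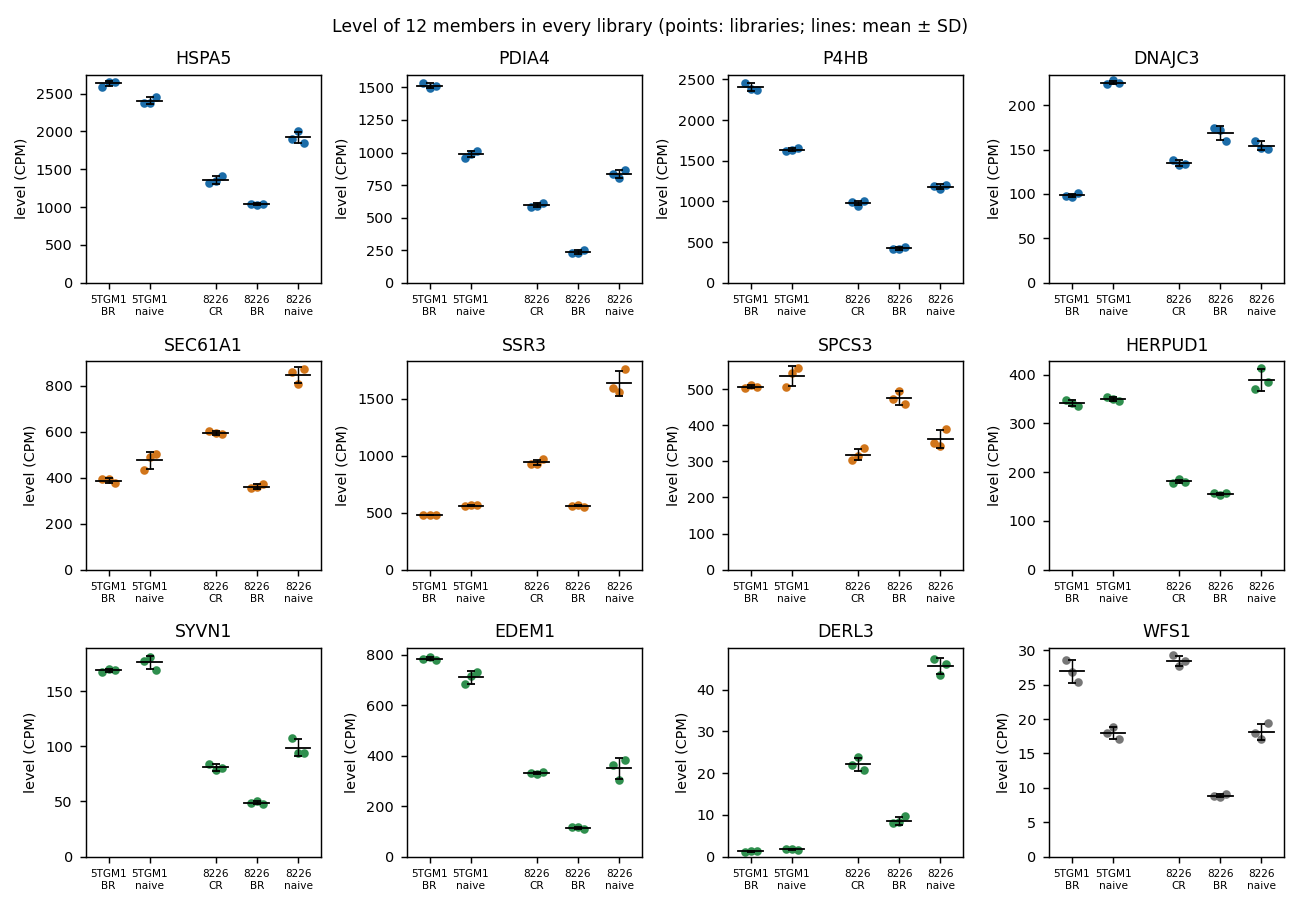
TMM-scaled CPM (y axis, from 0) of 12 members in each library; points are libraries, horizontal lines means and error bars SD of 3 libraries, with resistant groups left of the naive group of each line. In 8226, PDIA4, P4HB, EDEM1 and DERL3 are lowest in the bortezomib-resistant line, while SPCS3 is highest there; in 5TGM1, DNAJC3 is lower and PDIA4 and P4HB are higher in the bortezomib-resistant line than in naive cells.

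The wider lists were read in 8226 beside 38.2% of all genes called higher and 41.6% called lower. Of 28 further folding genes, 4 were called higher and 18 lower in bortezomib-resistant cells, and of 25 translocation and glycosylation genes 4 higher and 18 lower. Of 25 further degradation genes, 12 were higher and 11 lower (median 0.12 on the log2 scale), which is near the background in both directions. Cyclophilin B, PPIB, averaged 499.5 CPM in resistant and 1938 CPM in naive cells (-1.96 ± 0.064). PDIA5 (-1.60 ± 0.063) and the peroxiredoxin PRDX4 (-1.47 ± 0.071) were lower as well, and QSOX1 (1.10 ± 0.11), TMX3 (1.04 ± 0.060) and SIL1 (0.37 ± 0.061) were higher. The oligosaccharyltransferase subunits RPN1 (-1.46 ± 0.060) and STT3B (-1.45 ± 0.051) and the SRP receptor subunit SRPRB (-1.08 ± 0.051) were lower. SEC61A2 (1.33 ± 0.10), SRP14 (0.26 ± 0.065) and SRP19 (0.24 ± 0.067) were higher. Among degradation genes, FAF2, which recruits the segregase p97, was higher (1.07 ± 0.049), as were ERLIN2 (0.95 ± 0.053) and UBAC2 (0.87 ± 0.057). The ubiquitin ligase RNF139 (-1.06 ± 0.065), TMUB1 (-0.84 ± 0.13) and UBXN4 (-0.63 ± 0.056) were lower.

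Whether the change with bortezomib resistance differed between the lines was tested directly, as the change in 8226 minus the change in 5TGM1, over 8814 symbols shared by the lines. The difference was called lower for 35 of 40 members, higher for DNAJC3, SPCS3 and EDEM2, and not called for CANX and SEC61B, against 39.2% of shared symbols called lower and 36.4% higher. Its median over the members was -0.97 against -0.019 over all shared symbols, and it was a 2-fold or larger difference downward for 19 members and for 14.9% of symbols. PDIA4 (-2.45 ± 0.071; adjusted p = 6.75e-15), P4HB (-2.05 ± 0.066; adjusted p = 2.58e-14) and DNAJB9 (-1.95 ± 0.083; adjusted p = 1.36e-12) led the folding members, since each was lower in resistant 8226 and higher in resistant 5TGM1. DERL3 (-1.98 ± 0.16), EDEM1 (-1.78 ± 0.098) and DERL1 (-1.66 ± 0.063) led the degradation members. SSR2 (-1.43 ± 0.078), SSR3 (-1.33 ± 0.071) and SEC61A1 (-0.95 ± 0.078) led the translocation members. HSPA5 (-1.03 ± 0.065), HSP90B1 (-0.97 ± 0.082), SYVN1 (-0.97 ± 0.076) and HERPUD1 (-1.30 ± 0.065) were called lower as well. DNAJC3 stood apart with 1.31 ± 0.065 (adjusted p = 1.07e-11). In all, 20 members were called higher in resistant 5TGM1 and lower in resistant 8226. Another 11 were lower in both (DNAJC10, CANX, SEC61A1, SEC62, SEC63, SERP1, SSR1, SSR3, SPCS1, DERL3 and CREB3L2), and 1, DNAJC3, was lower in 5TGM1 and higher in 8226. Of the 11 lower in both, 7 act in translocation. In the single comparisons, 7 of 11 translocation members were called lower in 5TGM1 and 9 of 11 in 8226. Of all genes tested, 34.0% were called higher and 33.2% lower in 5TGM1, and 38.2% higher and 41.6% lower in 8226. The share of shared symbols with each pair of calls was not counted, and whether the roles differ was not tested. Species, line, depth and drug concentration all differ between the lines and cannot be told apart. Under library size alone, the median of all shared symbols moved up by 0.20, 61.3% of calls were higher in place of 48.1%, and the members' median was -0.77. Under that scaling CANX was called with the opposite sign (0.17, adjusted p = 0.036), and SEC63 and CREB3L2 were not called. SEC62 (-0.27, adjusted p = 0.0222) and SPCS1 (-0.23, adjusted p = 0.00888) stayed called with smaller differences, and EDEM2 (0.53, adjusted p = 7.36e-06) with a larger one. SEC63 (-0.23) also missed the threshold without any of several libraries, with adjusted p of 0.0540 to 0.0904 without 5TGM1 naive 3, 5TGM1 resistant 1 or 3, 8226 naive 1 or 2, or 8226 resistant 3.

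**Figure D4:**
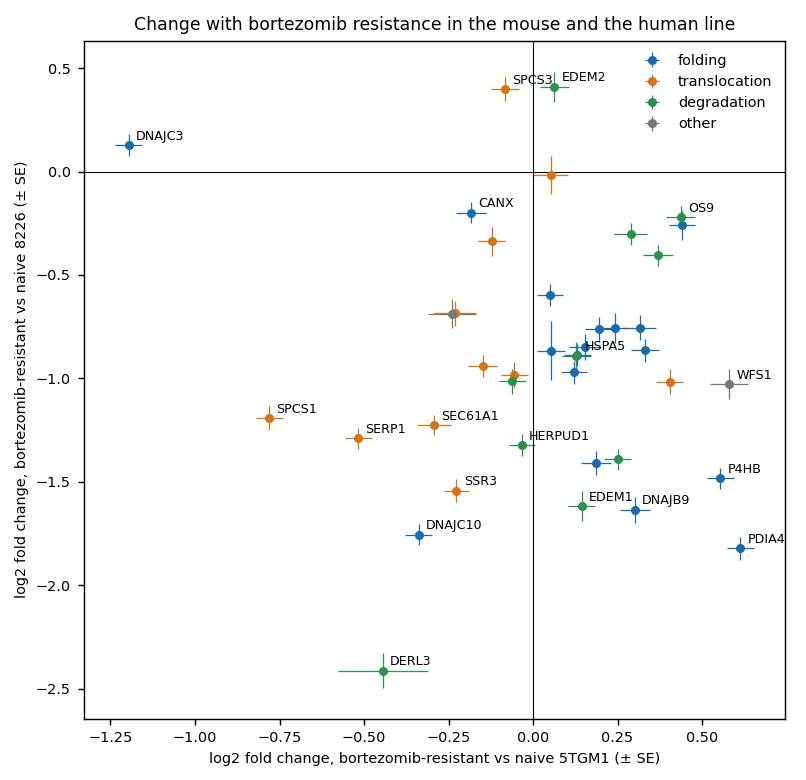
Log2 fold change with bortezomib resistance in 5TGM1 (x axis) and in 8226 (y axis) for each of the 40 members, coloured by role, with SE bars. Most points lie below 0 on the y axis on both sides of 0 on the x axis: 20 members were called higher in 5TGM1 and lower in 8226, 11 lower in both, and DNAJC3 lies alone at the left with -1.20 in 5TGM1 and 0.13 in 8226. The share of all shared symbols with these pairs of calls was not counted.

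The carfilzomib-resistant line was then set against the same naive 8226 libraries. Most members were lower here as well, by smaller steps: 29 of 40 were called lower, 2 higher (CANX and WFS1) and 9 not called, with a median of -0.39 against -0.0036 for all genes. Of the 13910 genes tested, 36.7% were called lower and 35.0% higher, and 13.4% were called lower by at least 2-fold, a size reached by 4 members. Libraries did not overlap for 31 of 40 members and for 73.1% of all genes. By role, 13 of 17 folding members (median -0.40), 8 of 11 translocation members (median -0.36) and 8 of 10 degradation members (median -0.75) were called lower. Folding members summed to 10773 ± 262 CPM in carfilzomib-resistant and 13636 ± 275 CPM in naive cells. Translocation members summed to 5036 ± 19.8 CPM in resistant and 7085 ± 187 CPM in naive cells, and degradation members to 1447 ± 18.4 CPM in resistant and 2174 ± 20.3 CPM in naive cells.

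DNAJC10 had 242, 237 and 251 CPM in carfilzomib-resistant and 546, 563 and 518 CPM in naive 8226 (-1.16 ± 0.052; adjusted p = 1.73e-11), and was the folding member with the largest change. DNAJB9 had 56.5, 57.7 and 57.6 CPM in resistant and 100.3, 106 and 113 CPM in naive cells (-0.89 ± 0.060; adjusted p = 2.48e-09). HSP90B1 had 1458, 1426 and 1447 CPM in resistant and 2258, 2397 and 2052 CPM in naive cells (-0.63 ± 0.061; adjusted p = 1.78e-07). HSPA5 had 1314, 1346 and 1409 CPM in resistant and 1906, 2005 and 1852 CPM in naive cells (-0.50 ± 0.051; adjusted p = 3.44e-07). In all 4 the resistant libraries lay below every naive library. The rest of the called folding members fell within a narrow range, from CRELD2 (-0.54 ± 0.068), PDIA4 (-0.49 ± 0.053), PDIA6 (-0.48 ± 0.055) and MANF (-0.45 ± 0.056) through DNAJB11 (-0.40 ± 0.072), CALR (-0.38 ± 0.055), P4HB (-0.27 ± 0.050) and PDIA3 (-0.25 ± 0.052) to DNAJC3 (-0.19 ± 0.051). CANX, the membrane-bound lectin chaperone, was higher, with 2145, 2069 and 2231 CPM in resistant and 1869, 1844 and 1886 CPM in naive cells (0.20 ± 0.051; adjusted p = 0.00227). UGGT1, whose product returns glycoproteins to CANX and CALR, was not called (0.0092, 95% interval -0.12 to 0.13), nor were HYOU1 (-0.14, -0.27 to -0.0076 unadjusted) and SDF2L1 (0.12, -0.17 to 0.40). HYOU1 lay near the threshold and was called lower without naive library 3 (-0.17, adjusted p = 0.032) or carfilzomib-resistant library 3 (-0.19, adjusted p = 0.0191), with RLE scaling (-0.16, adjusted p = 0.0281), with DESeq2 (-0.16, adjusted p = 0.0214) and without regard to strand (-0.14, adjusted p = 0.0472). It was not called with library size alone (-0.077, adjusted p = 0.272) or without carfilzomib-resistant library 2 (-0.087, adjusted p = 0.25). SDF2L1 was called higher without naive library 3 (0.33, adjusted p = 0.00653).

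In translocation, SPCS1 had 174, 181 and 168 CPM in carfilzomib-resistant and 286, 321 and 329 CPM in naive cells (-0.84 ± 0.058; adjusted p = 3.68e-09). SSR3 had 925, 932 and 968 CPM in resistant and 1591, 1558 and 1764 CPM in naive cells (-0.80 ± 0.055; adjusted p = 3.44e-09). SEC62 had 321, 321 and 313 CPM in resistant and 517, 540.2 and 519 CPM in naive cells (-0.72 ± 0.059; adjusted p = 2.61e-08). SEC61A1 had 604, 595 and 588 CPM in resistant and 857, 807 and 871 CPM in naive cells (-0.50 ± 0.050; adjusted p = 2.35e-07), again below every naive library. SERP1 (-0.58 ± 0.048), SSR1 (-0.36 ± 0.052), SPCS2 (-0.25 ± 0.062) and SPCS3 (-0.18 ± 0.060) were lower. SSR2 (95% interval -0.17 to 0.086), SEC61B (-0.31 to 0.072) and SEC63 (-0.25 to 0.042) were not called. Calls near the threshold depended on the scaling or on 1 library. SPCS3 was not called with library size alone (-0.12, adjusted p = 0.0949), without naive library 3 (-0.12, adjusted p = 0.0739) or resistant library 1 (-0.14, adjusted p = 0.0942), SEC63 was called lower without naive library 3 (-0.18, adjusted p = 0.0163), and SEC61B without resistant library 2 (-0.23, adjusted p = 0.0239).

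Of the 4 members that fell by 2-fold or more, 3 act in degradation, beside 13.4% of all genes called lower by that size. Whether the roles differ was not tested. DERL2 had 14.3, 15.6 and 15.8 CPM in carfilzomib-resistant and 32.8, 35.4 and 33.8 CPM in naive cells (-1.16 ± 0.066; adjusted p = 3.48e-10). HERPUD1 had 179, 185 and 179.7 CPM in resistant and 369.6, 414 and 384 CPM in naive cells (-1.10 ± 0.052; adjusted p = 2.98e-11). DERL3 had 21.98, 23.8 and 20.7 CPM in resistant and 47.3, 43.5 and 46.1 CPM in naive cells (-1.05 ± 0.075; adjusted p = 5.3e-09). All resistant libraries of these genes lay below all naive ones. SYVN1 was lower, with 83.8, 78.1 and 80.3 CPM in resistant and 107, 94.2 and 93.9 CPM in naive cells (-0.29 ± 0.060; adjusted p = 0.000511). Its adaptor SEL1L (-0.97 ± 0.053), the lectin OS9 (-0.75 ± 0.052), DERL1 (-0.74 ± 0.048) and EDEM3 (-0.27 ± 0.054) were lower too. EDEM1 had 333, 328 and 336 CPM in resistant and 364, 304 and 382 CPM in naive cells and was not called (-0.076, 95% interval -0.23 to 0.075), but was called lower without naive library 2 (-0.17, adjusted p = 0.00797). EDEM2 was not called (-0.13, -0.29 to 0.025), but was called lower without resistant library 3 (-0.21, adjusted p = 0.0264). WFS1 was higher, with 29.3, 27.7 and 28.4 CPM in resistant and 17.9, 17.1 and 19.4 CPM in naive cells (0.65 ± 0.065; adjusted p = 2.78e-07), and CREB3L2 was not called (95% interval -0.18 to 0.12). Of the wider lists, read beside 35.0% of all genes called higher and 36.7% lower, 7 of 28 folding genes were called higher and 16 lower, 1 of 25 translocation genes higher and 17 lower, and 3 of 25 degradation genes higher and 14 lower. FKBP10, an ER prolyl isomerase, averaged 0.321 CPM in resistant and 17.3 CPM in naive cells (-5.70 ± 0.12). FKBP11 (-1.09 ± 0.063) and PRDX4 (-1.03 ± 0.070) were lower too, and QSOX1 (1.23 ± 0.10), TMX4 (0.89 ± 0.052) and FKBP14 (0.50 ± 0.067) were higher. SEC11C (-1.09 ± 0.075), RPN2 (-0.91 ± 0.053) and RPN1 (-0.89 ± 0.060) were lower in translocation. In degradation, MAN1B1 (-0.91 ± 0.066), MARCH6 (-0.51 ± 0.052) and TMUB1 (-0.50 ± 0.12) were lower and UBAC2 (0.52 ± 0.057), ERLIN2 (0.43 ± 0.052) and VCP (0.16 ± 0.049) higher.

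Both 8226 comparisons above share the naive libraries. The resistant lines were also set against each other, at the same culture concentration of the respective drug. This contrast reuses the resistant libraries in the same fit, so it is not independent of those comparisons. Carfilzomib-resistant cells had higher levels for 29 of 40 members, lower levels for 7, and 4 were not called, against 39.9% of the 13910 genes tested called higher and 37.0% lower. The members' median was 0.59 against 0.020 for all genes, and 5 members were higher by at least 2-fold against 15.5% of all genes. Libraries did not overlap for 37 members and for 79.8% of all genes. By role, 14 of 17 folding members were called higher and 2 lower (median 0.59), 8 of 11 translocation members higher and 1 lower (median 0.58), and 5 of 10 degradation members higher and 4 lower (median 0.12). Whether the roles differ was not tested. With library size alone, the median of all genes moved down by 0.10 and the members' median was 0.46, SEC63 and HERPUD1 were not called, and SEC61B (-0.23) and SEC62 (-0.16) were called lower. DNAJB11 (0.23, adjusted p = 0.00684), PDIA3 (0.22, adjusted p = 0.00102) and SPCS1 (0.23, adjusted p = 0.00163) stayed called with smaller changes.

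PDIA4 had 581, 589.7 and 611 CPM in carfilzomib-resistant and 229, 229.6 and 250.3 CPM in bortezomib-resistant 8226, 2.51-fold higher (1.33 ± 0.054; adjusted p = 4.33e-12). P4HB had 994, 950.1 and 999.9 CPM in carfilzomib-resistant and 415, 412 and 441 CPM in bortezomib-resistant cells (1.21 ± 0.051; adjusted p = 5.88e-12). SDF2L1, a partner of DNAJB11, had 16.6, 17.9 and 15.3 CPM in carfilzomib-resistant and 8.66, 8.03 and 8.47 CPM in bortezomib-resistant cells (0.98 ± 0.14; adjusted p = 1.2e-05). These gaps left no overlap between the lines. HSPA5 had 1314, 1346 and 1409 CPM in carfilzomib-resistant and 1042, 1027 and 1047 CPM in bortezomib-resistant cells (0.39 ± 0.051; adjusted p = 5.22e-06). HSP90B1 had 1458, 1426 and 1447 CPM in carfilzomib-resistant and 1373, 1329 and 1251 CPM in bortezomib-resistant cells (0.13 ± 0.061; adjusted p = 0.059) and was not called, with an unadjusted 95% interval of 0.0028 to 0.26. It was called without bortezomib-resistant library 1 (0.16, adjusted p = 0.0469) and by DESeq2 (0.14, adjusted p = 0.0433). With library size alone the change was near 0 (0.0076, adjusted p = 0.92). MANF (0.96 ± 0.057), UGGT1 (0.76 ± 0.059), DNAJB9 (0.74 ± 0.062) and HYOU1 (0.71 ± 0.062) came next among the higher folding members, followed by DNAJC10 (0.60 ± 0.052), CALR (0.59 ± 0.055), CANX (0.40 ± 0.051), PDIA6 (0.39 ± 0.055), DNAJB11 (0.36 ± 0.072) and PDIA3 (0.34 ± 0.053). DNAJC3 was lower, with 138, 133 and 134 CPM in carfilzomib-resistant and 174, 172 and 160.1 CPM in bortezomib-resistant cells (-0.32 ± 0.051; adjusted p = 3.34e-05), as was CRELD2, with 30.8, 32.3 and 33.3 CPM in carfilzomib-resistant and 38.8, 35.6 and 42.2 CPM in bortezomib-resistant cells (-0.28 ± 0.069; adjusted p = 0.00191).

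SSR2 had 471, 486 and 491 CPM in carfilzomib-resistant and 236, 242 and 259 CPM in bortezomib-resistant cells (0.97 ± 0.060; adjusted p = 7.02e-10). SSR3 (0.75 ± 0.055), SPCS2 (0.74 ± 0.063), SEC61A1 (0.72 ± 0.050) and SERP1 (0.72 ± 0.048) were higher too. SSR1 (0.58 ± 0.052), SPCS1 (0.36 ± 0.058) and SEC63 (0.23 ± 0.070) were higher by less. For SEC61A1 the libraries read 604, 595 and 588 CPM in carfilzomib-resistant and 353, 358 and 373 CPM in bortezomib-resistant cells, again without overlap. SPCS3 ran the other way, with 305, 315 and 336 CPM in carfilzomib-resistant and 472, 496 and 459 CPM in bortezomib-resistant cells (-0.58 ± 0.060; adjusted p = 3.2e-07). SEC61B (95% interval -0.30 to 0.088) and SEC62 (-0.16 to 0.09) were not called, and SEC61B was called lower without carfilzomib-resistant library 2 (-0.21, adjusted p = 0.0324).

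EDEM1 showed the widest gap of the degradation members, with 333, 328 and 336 CPM in carfilzomib-resistant and 116, 118 and 109 CPM in bortezomib-resistant cells, 2.91-fold higher (1.54 ± 0.073; adjusted p = 2.53e-11). DERL3 had 21.98, 23.8 and 20.7 CPM in carfilzomib-resistant and 7.92, 8.17 and 9.62 CPM in bortezomib-resistant cells (1.37 ± 0.084; adjusted p = 6.22e-10). SYVN1 had 83.8, 78.1 and 80.3 CPM in carfilzomib-resistant and 48.98, 50.05 and 47.4 CPM in bortezomib-resistant cells (0.73 ± 0.061; adjusted p = 2.81e-08). The ligase was thus higher in carfilzomib-resistant cells. Its adaptor SEL1L was lower there, with 129, 129 and 128 CPM in carfilzomib-resistant and 193, 197 and 180.2 CPM in bortezomib-resistant cells (-0.56 ± 0.053; adjusted p = 1.02e-07). EDEM2 had 24.8, 25.3 and 29.01 CPM in carfilzomib-resistant and 38.99, 35.4 and 40.9 CPM in bortezomib-resistant cells (-0.54 ± 0.073; adjusted p = 6.2e-06). OS9 had 219.6, 212 and 209 CPM in carfilzomib-resistant and 302, 309 and 314 CPM in bortezomib-resistant cells (-0.53 ± 0.052; adjusted p = 1.89e-07). DERL1 (0.65 ± 0.049) and HERPUD1 (0.22 ± 0.052) were higher, DERL2 lower (-0.27 ± 0.068), and EDEM3 not called (95% interval -0.089 to 0.14). WFS1 had the largest change of the 40, with 29.3, 27.7 and 28.4 CPM in carfilzomib-resistant and 8.82, 8.73 and 9.07 CPM in bortezomib-resistant cells, 3.21-fold higher (1.68 ± 0.071; adjusted p = 5.95e-12). CREB3L2 was higher too (0.66 ± 0.070). Against the shared naive libraries, the log2 fold change of SEL1L was -0.97 in carfilzomib-resistant and -0.41 in bortezomib-resistant cells. That of OS9 was -0.75 in carfilzomib-resistant and -0.22 in bortezomib-resistant cells. That of EDEM1 was -0.076 in carfilzomib-resistant cells, where it was not called, and -1.62 in bortezomib-resistant cells.

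The wider lists were read between the resistant lines as well, beside 39.9% of all genes called higher and 37.0% lower. Of 28 further folding genes, 13 were higher and 5 lower in carfilzomib-resistant cells, of 25 translocation genes 12 higher and 9 lower, and of 25 degradation genes 9 higher and 13 lower. FKBP7 (1.79 ± 0.083), TMX4 (1.33 ± 0.053) and PPIB (1.32 ± 0.063) were higher among folding genes. TMX3 (-1.46 ± 0.061), SIL1 (-0.87 ± 0.061) and TOR1A (-0.29 ± 0.054) were lower. STT3B (0.99 ± 0.051), SRP68 (0.92 ± 0.049) and KRTCAP2 (0.85 ± 0.11) were higher among translocation genes. SEC61A2 (-0.98 ± 0.096), SEC61G (-0.50 ± 0.13) and SRP14 (-0.50 ± 0.065) were lower. RNF139 (0.95 ± 0.065), ERLIN1 (0.48 ± 0.059) and UBXN4 (0.43 ± 0.056) were higher among degradation genes. FAF2 (-1.08 ± 0.049), MAN1B1 (-1.08 ± 0.066) and SELS (-0.76 ± 0.060) were lower.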

How the data were processed

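RNA-seq of 15 libraries was analysed from the gene counts that the authors deposited, 1 table per library. Per the submitters' processing notes, STAR was used, with mm10, hg19, GRCm38 and GRCh37 named as builds. Versions and settings are not given in the sources used here. Column 4 of each table (reads counted on the reverse strand) was read, since it held most gene reads. The first rows, which name no gene, were left out: 1.04% to 6.04% unmapped, 8.95% to 16.3% multimapping, 10.4% to 16.6% outside features and 0.602% to 1.14% ambiguous reads per library.

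The libraries of each line were fitted together with edgeR 4.0.16 (R 4.3.3, limma 3.58.1): TMM scaling, filterByExpr, quasi-likelihood F test and Benjamini-Hochberg adjustment over all genes tested, with calls at an adjusted p below 0.05. Adjusted p-values printed without a tool come from this test. The line difference was fitted over symbols shared by name, not by curated orthology, with TMM within each line. A standard error is the log2 fold change divided by the root of F. Intervals are 95% and unadjusted. Within each group, libraries differed beyond sampling noise, so none was merged.

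The members and lists were chosen with earlier results of these data known. In each comparison and role, up to 3 called members per direction with the largest change are given by library where the results turn on them, HSPA5, HSP90B1, SEC61A1, SYVN1 and HERPUD1 always, and of each wider list up to 3 per direction that reached 10 CPM on average in the higher group. Alternatives were RLE scaling, library size alone, no low-count filter, counts without regard to strand, DESeq2 1.42.0, the replicate number as a block, only the 6 libraries compared, and leaving out each library. Genes that share reads with near-identical copies were not resolved, as multimapping reads were not counted. Coordinates are given only for RefSeq promoter windows.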

Additional observations from a re-analysis of the deposited data

Results flagged for a closer look

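The change with bortezomib resistance differed between the lines for 38 of the 40 members, by the test of the difference itself (edgeR's quasi-likelihood test, adjusted over all shared symbols, 3 libraries per group). Of all 8814 shared symbols, 39.2% were called lower and 36.4% higher. Each value below is the log2 change in 8226 minus the log2 change in 5TGM1. Among folding members it was -2.45 for PDIA4, -2.05 for P4HB, -1.95 for DNAJB9, -1.61 for MANF, -1.43 for DNAJC10, -1.21 for PDIA6, -1.11 for CALR, -1.09 for UGGT1, -1.03 for HSPA5, -1.02 for HYOU1, -1.01 for DNAJB11, -0.97 for HSP90B1, -0.93 for SDF2L1, -0.72 for CRELD2, -0.66 for PDIA3 and 1.31 for DNAJC3. Among translocation members it was -1.43 for SSR2, -1.33 for SSR3, -0.95 for SEC61A1, -0.94 for SPCS2, -0.81 for SSR1, -0.79 for SERP1, -0.47 for SEC62, -0.43 for SPCS1, -0.23 for SEC63 and 0.47 for SPCS3. Among degradation members it was -1.98 for DERL3, -1.78 for EDEM1, -1.66 for DERL1, -1.30 for HERPUD1, -1.04 for DERL2, -0.97 for SYVN1, -0.79 for SEL1L, -0.67 for OS9, -0.61 for EDEM3 and 0.33 for EDEM2. It was -1.62 for WFS1 and -0.46 for CREB3L2. SEC63 and CREB3L2 were not called with library size alone, and SEC63 also missed the threshold without any of 6 libraries in turn. The summed plasma cell markers, which include XBP1, also moved in opposite directions in the lines, and their part in these differences was not tested.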

How the results depend on the processing

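Every count of members called stayed within 1.5 times its reported value under the alternatives run. Members higher in bortezomib-resistant 8226 numbered 2 in place of 3 with RLE scaling, without the low-count filter, with DESeq2 and with only the 6 libraries compared, and members lower there 31 in place of 36 with library size alone. Leaving out 1 library at a time gave 19 to 21 members higher and 11 to 13 lower in bortezomib-resistant 5TGM1, 2 to 3 higher and 36 lower in bortezomib-resistant 8226, 2 to 3 higher and 28 to 31 lower in carfilzomib-resistant 8226, 29 to 30 higher and 7 to 8 lower between the resistant lines, and 3 higher and 34 to 35 lower for the line difference. Of 200 fold changes (40 members in 5 contrasts), direction and call were kept by 197 with RLE scaling, 182 with library size alone, 198 without the low-count filter, 199 without regard to strand and 196 with DESeq2. The signs that turned were all of values that had not been called. With library size alone these were SEC61B in bortezomib-resistant 8226 (0.17), SSR2 (0.021) and CREB3L2 (0.030) in carfilzomib-resistant 8226, EDEM3 between the resistant lines (-0.098), and the line difference of CANX (0.17) and SEC61B (0.12). With RLE scaling and with DESeq2 it was UGGT1 in carfilzomib-resistant 8226 (-0.014). Leaving out 1 library gave log2 fold changes of -0.090 to 0.037 for SEC61B in bortezomib-resistant 8226. In carfilzomib-resistant 8226 it gave -0.086 to 0.037 for CREB3L2, -0.044 to 0.33 for SDF2L1, -0.074 to 0.025 for SSR2 and -0.031 to 0.051 for UGGT1. Between the resistant lines it gave -0.0071 to 0.054 for EDEM3, -0.21 to 0.00088 for SEC61B and -0.10 to 0.019 for SEC62, and for the line difference of CANX -0.055 to 0.011. The cause of these turns was not tested.

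No pairing by replicate number was seen: deviations of same-numbered libraries correlated at -0.11 to 0.16, and of differently numbered ones at -0.15 to 0.11. With 3 libraries per group, this cannot show that the libraries were unpaired. With the replicate number as a block, the counts were 20 higher and 12 lower in 5TGM1, 3 and 36 in bortezomib-resistant 8226, 2 and 29 in carfilzomib-resistant 8226, 30 and 7 between the resistant lines and 3 and 35 for the line difference. The single changed call was HSP90B1 between the resistant lines (0.13, adjusted p = 0.0436), which was also called without the low-count filter (0.0266) and with only the 6 libraries compared (0.0198). Among members, depth limits Derl3 in 5TGM1 most, at the lowest counts.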

Other observations

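Outside the list, 18 genes of the promoter table held the ER stress element, and 10 of them were tested in 8226. In bortezomib-resistant cells 4 of these were called higher and 4 lower than in naive cells, beside 38.2% of all genes higher and 41.6% lower. In carfilzomib-resistant cells 2 were higher and 5 lower than in naive cells, beside 35.0% and 36.7% of all genes. Between the resistant lines 4 were higher in carfilzomib-resistant cells and 5 lower, beside 39.9% and 37.0% of all genes. The transcription factor XBP1 changed by -1.40 ± 0.057 (SE) on the log2 scale in bortezomib-resistant and -0.45 ± 0.056 in carfilzomib-resistant cells against naive cells, and was higher in carfilzomib- than in bortezomib-resistant cells (0.95 ± 0.056). Of the genes whose windows overlap those of members, ALG12, a mannosyltransferase that shares 295 bases with the window of CRELD2, was higher in bortezomib-resistant cells (0.51 ± 0.086), while CRELD2 was lower (-0.26 ± 0.068). EIF2A, an initiation factor that shares 210 bases with the window of SERP1, was lower (-0.44 ± 0.052), as was SERP1 (-1.29 ± 0.049). These genes were looked up after the members' promoters had been read, and no test compares them with the members.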
